A study of Mus musculus with 24 samples.

Results

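The TSC22 domain family comprises Tsc22d1, Tsc22d2, Tsc22d3 and Tsc22d4, 4 mouse genes whose proteins carry a conserved TSC box next to a leucine zipper. Every probe that the platform's probe annotation assigns to one of these symbols was taken, which gave 3 of the 16593 genes and 5 of the 25697 probes on the array. Tsc22d1 has 2 probes, Tsc22d3 has 2, Tsc22d4 has 1, and Tsc22d2 has 0 and was not analysed here. The family was chosen by measured values, the mutant minus control differences in brain, so its values in that comparison are given as a description without a test. Testis, spleen and the levels over tissues were not used to choose it and were tested.

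TSC22 proteins pair through their leucine zippers and act on transcription and signalling, largely through the proteins they bind. Tsc22d1 was first described as a transcript induced by TGF-beta. Tsc22d3, also called GILZ (glucocorticoid-induced leucine zipper), is a direct target of the glucocorticoid receptor and restrains NF-kappaB, AP-1 and Ras signalling in lymphoid and other cells. Tsc22d4 forms dimers with Tsc22d1 and takes part in the NRBP and WNK kinase network that controls cell volume. Genes of the family have long and short transcripts that start at different places, so probes to one gene can read different transcripts.

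The study compared Smc6 mutant males, labelled -/-, with control males. Smc6 encodes a subunit of the SMC5/6 complex, which acts in DNA repair. All mice shared a background labelled C57BL/6J-129ola-Fvb. Testis and spleen were taken at 12 weeks of age from the same 4 mutants and 4 controls, and brain was taken at 19 weeks from 4 other mutants and 4 other controls. All controls are labelled wildtype, but the identifiers of the testis and spleen animals give controls 1 and 2 as +/+ and controls 3 and 4 as +/-. Each array held RNA of 1 animal, giving 24 arrays on the Illumina MouseRef-8 platform. How the mutation alters the Smc6 transcript or protein is not given in the labels, nor is a brain region.

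The probes lie in genes on 3 chromosomes of the mouse assembly GRCm38.p6. Tsc22d1 spans chr14:76414961-76507765, Tsc22d3 spans chrX:140539528-140600522 and Tsc22d4 spans chr5:137745969-137768453. The annotation pairs Tsc22d1 probe ILMN_2677878 with transcript NM_207652 and probe ILMN_2723108 with NM_009366. It pairs Tsc22d3 probe ILMN_2701664 with NM_010286 and probe ILMN_3150811 with NM_001077364, and the Tsc22d4 probe ILMN_2638061 with NM_023910. The position of each probe within its transcript (exon or untranslated region) is not given in the sources used here, and levels of different probes are not compared as amounts of transcript.

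The RefSeq promoter table of GRCm38.p6 lists 5 transcript starts for Tsc22d1 and 3 for Tsc22d3, each with 250 bases before and 50 after the start. It was searched on both strands for 7 motifs, among them AGAACA, the hexamer of a glucocorticoid receptor element. This hexamer was present in 1 of the 5 Tsc22d1 windows and 1 of the 3 Tsc22d3 windows, against 18.97% of all 32851 windows. Both windows are printed, with the hexamer in capitals (TGTTCT where it lies on the other strand), because glucocorticoid induction is the textbook property of Tsc22d3. The window at another Tsc22d3 start, which has 0 matches to it, follows to show how different the starts of one gene are.
Tsc22d1 window chr14:76503976-76504275, plus strand: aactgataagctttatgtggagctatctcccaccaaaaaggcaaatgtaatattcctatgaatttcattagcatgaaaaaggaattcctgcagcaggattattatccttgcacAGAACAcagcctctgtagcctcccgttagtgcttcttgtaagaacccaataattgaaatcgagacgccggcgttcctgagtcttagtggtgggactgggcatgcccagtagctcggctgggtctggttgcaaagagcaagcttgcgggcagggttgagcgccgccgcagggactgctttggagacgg
Tsc22d3 window chrX:140600473-140600772, minus strand: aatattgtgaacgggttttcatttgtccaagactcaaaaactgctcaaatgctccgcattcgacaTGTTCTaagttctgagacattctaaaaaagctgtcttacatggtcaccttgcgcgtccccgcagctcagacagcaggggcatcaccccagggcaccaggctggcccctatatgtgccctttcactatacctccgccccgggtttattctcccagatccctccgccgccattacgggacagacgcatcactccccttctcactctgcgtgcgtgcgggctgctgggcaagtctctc
Tsc22d3 window chrX:140542619-140542918, minus strand: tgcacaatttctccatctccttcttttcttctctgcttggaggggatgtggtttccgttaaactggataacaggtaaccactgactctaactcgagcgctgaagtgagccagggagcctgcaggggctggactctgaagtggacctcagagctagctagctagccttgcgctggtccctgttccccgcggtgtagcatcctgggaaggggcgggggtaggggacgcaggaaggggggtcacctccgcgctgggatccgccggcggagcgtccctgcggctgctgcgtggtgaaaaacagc
The hexamer began at -137 from the start in the Tsc22d1 window and at -185 in the Tsc22d3 window. The full palindrome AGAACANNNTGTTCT, which contains the hexamer, was in 0 of these 8 windows and in 0.009132% of all windows. CAGACA, a SMAD motif, was in 1 Tsc22d1 window and in the printed Tsc22d3 window that starts at 140600473 (21.04% of all windows). CACGTG and TATAAA were in 1 Tsc22d1 window (7.15% and 13.62% of all), and GTAAACA and TGACGTCA were in 0 of the 8 (3.65% and 1.79% of all). A match is a description of letters, and the table does not tie a start to a probe.

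Between 12049 and 14234 probes were detected per array, at a detection p under 0.05. The tissue markers fitted the labels: 8 of 8 spermatid markers were detected on all testis arrays, 6 of 7 B cell markers on all spleen arrays and 8 of 8 astrocyte markers on all brain arrays, although the Snap25 and Gad2 probes were not detected in brain. The Smc6 probe read -0.04 (SE 0.10) in testis, 0.19 (SE 0.16) in spleen and -0.03 (SE 0.09) in brain as mutant minus control on the log2 scale, with adjusted p of 1.00, 1.00 and 0.931 by limma. Some arrays stood apart. Spleen mutants 1 and 2 carried pancreatic acinar transcripts, with a median over 8 measured markers of 10.03 and 9.07 against 4.55 to 5.27 on the other 6 spleen arrays, and testis mutant 1 did so at a lower level. Spermatid markers were also read in spleen, where 2 of 8 were detected on all 8 arrays. Their median over 4 measured markers was 6.34 on spleen mutant 1, against 4.82 to 5.74 on the spleen controls. The median of 4 pituitary genes ranged from 4.30 to 10.93 over the brain arrays of both groups. The brain mutant arrays were dimmer, with an upper quartile of intensity of 152 ± 7.24 (SD, n = 4) against 177 ± 8.27 (SD, n = 4) in controls. Bulk tissue was measured, so fewer cells of a type and less RNA per cell cannot be told apart.

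The levels of the family over tissues were examined first, in the 12 control arrays, from log2 intensities of all 24 arrays normalized together. Tsc22d3 and Tsc22d4 were higher in brain and spleen than in testis, and 1 Tsc22d1 probe was high in testis, lower in brain and not detected in spleen. The background for these comparisons is high, since 83.4% of 16638 probes passed an adjusted p under 0.05 between brain and testis, 76.2% between brain and spleen and 78.1% between testis and spleen. Brain came from older animals than the other tissues, so tissue and age cannot be told apart for brain.

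Tsc22d3 probe ILMN_3150811 read 7.26, 7.37, 7.24 and 7.49 in control testis. In control spleen it read 10.80, 11.06, 10.33 and 10.55, and in control brain 11.09, 10.80, 10.72 and 11.02. Testis lay far below both other tissues, and spleen and brain overlapped. The level was 11.8-fold higher in brain than in testis (log2 difference 3.56, SE 0.14, adjusted p 1.68e-12 by limma). It was 10.1-fold lower in testis than in spleen (log2 difference -3.34, SE 0.14, adjusted p 4.27e-12), and that difference was -2.75 with each tissue normalized on its own. Brain and spleen are neighbours in this order that did not pass the test (0.22, SE 0.14, adjusted p 0.166), but the call depends on the scaling and on 1 array. The difference was 1.24 with each tissue normalized on its own (adjusted p 3.32e-07), 0.87 with median scaling (adjusted p 8.04e-06) and 0.34 without spleen control 2 (adjusted p 0.0239).

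The other Tsc22d3 probe, ILMN_2701664, was detected on 0 of 4 control testis arrays and on every control spleen and brain array. It read 6.82, 6.53, 6.99 and 6.11 in control spleen and 6.23, 6.26, 5.96 and 6.14 in control brain. A probe that is not detected on any array of a group has only a bound there, taken per array as the higher of its own value and the lowest level of a detected probe. On that bound, as normalized together, the probe was at least 3.58-fold higher in spleen than in testis (adjusted p 3.53e-09). It was at least 2.59-fold higher in brain than in testis (adjusted p 6.7e-08). Spleen exceeded brain by a log2 difference of 0.47 as normalized together (brain minus spleen -0.47, SE 0.15, adjusted p 0.0128). That direction is not settled: brain minus spleen was 0.61 with each tissue normalized on its own (adjusted p 0.00103) and 0.22 with arrays scaled to their median (adjusted p 0.228). The measured difference between spleen and testis, whose test gave the p beside the bound, was -2.13 for testis minus spleen. It ranged from -3.07 to -1.54 over other settings. The -1.54, with each tissue normalized on its own, is less than 3.58-fold, so that bound does not carry over to that scaling. Brain minus testis was 1.67 and reached 2.62.

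Tsc22d4 rose in steps from testis through spleen to brain. Its probe read 6.47, 6.35, 6.36 and 6.51 in control testis, 7.36, 7.56, 7.78 and 7.45 in control spleen, and 8.46, 8.55, 8.44 and 8.60 in control brain. No pair of tissues overlapped. The level was 4.26-fold higher in brain than in testis (log2 difference 2.09, SE 0.10, adjusted p 1.42e-11) and 1.97-fold higher in brain than in spleen (0.98, SE 0.10, adjusted p 2.34e-07). Testis was 2.16-fold below spleen (-1.11, SE 0.10, adjusted p 3.71e-08). With each tissue normalized on its own, brain minus spleen was larger, at 2.03, and testis minus spleen was smaller in size, at -0.59.

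Tsc22d1 differed between its probes. Probe ILMN_2677878 read 7.05, 6.80, 7.04 and 6.95 in control testis and 5.98, 5.96, 5.86 and 5.59 in control brain, and was detected on 0 of 4 control spleen arrays. Brain was lower than testis by a log2 difference of -1.11 (SE 0.11, adjusted p 1.32e-07). That difference shrank to -0.56 with each tissue normalized on its own. The level was at least 4.23-fold higher in testis than in spleen (adjusted p 1.76e-11) and at least 1.95-fold higher in brain than in spleen (adjusted p 7.35e-08). The measured differences behind these bounds, 2.32 and 1.20, reached 3.18 and 2.06 with the deposited normalized values.

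Probe ILMN_2723108 of the same gene was detected on all 24 arrays. It read 8.37, 8.35, 8.62 and 8.83 in control testis, 8.76, 8.29, 8.47 and 8.61 in control spleen, and 8.23, 8.50, 8.17 and 8.12 in control brain. All 3 tissues overlapped. The differences were -0.29 for brain minus testis (SE 0.13, adjusted p 0.0561), -0.28 for brain minus spleen (SE 0.13, adjusted p 0.0706) and 0.01 for testis minus spleen (SE 0.13, adjusted p 0.943). These calls rest on single arrays and on the scaling. Brain minus testis passed at -0.37 without brain control 2 (adjusted p 0.0243), and also without testis control 1 or 2 or spleen control 1 or 2 (-0.34, -0.35, -0.29 and -0.29). Brain minus spleen passed at -0.36 without brain control 2 (adjusted p 0.0315) and at -0.36 without spleen control 2 (adjusted p 0.0260). It passed in the opposite direction at 0.78 with each tissue normalized on its own (adjusted p 3.86e-05) and at 0.42 with median scaling (adjusted p 0.0277). Testis minus spleen passed at 0.63 (adjusted p 0.000360) and at 0.41 (adjusted p 0.0323) under these scalings. The sign of all 3 differences turned under at least 1 other scaling or choice of controls.

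The scaling between tissues also moved all probes together. As normalized together, the median difference over all probes was 0.14 for brain minus testis, -0.05 for brain minus spleen and -0.11 for testis minus spleen. With each tissue normalized on its own these medians were 0.50, 0.62 and 0.12. Of the probes past the threshold, the share higher in brain than in spleen was then 76.6% in place of 48.1%, and the share higher in testis than in spleen 57.4% in place of 44.7%.

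**Figure D1:**
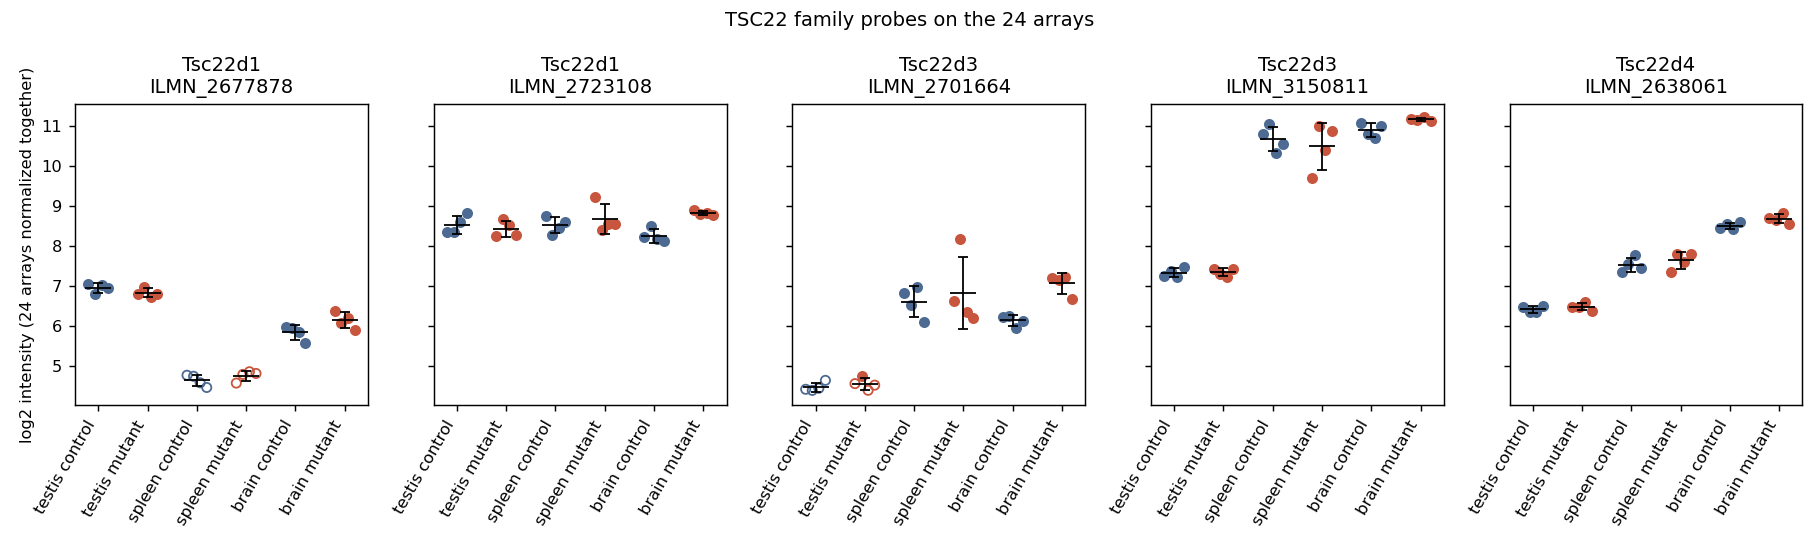
Log2 intensity (vertical axis, 24 arrays normalized together) of the 5 family probes in the 6 groups (horizontal axis), with controls in blue, mutants in red, open circles for arrays where the probe was not detected, and bars for the mean and SD of 4 arrays. Tsc22d3 and Tsc22d4 sit lowest in testis, and Tsc22d1 probe ILMN_2677878 is not detected in spleen.

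In brain, all 5 family probes read higher in mutants than in controls, from 0.17 to 0.95 on the log2 scale. These are the values that put the family forward, so they carry no test. For this comparison values were normalized over the 8 brain arrays alone. Over all 14027 brain probes tested, 4 (0.0285%) passed an adjusted p under 0.05, all of them higher in mutants, and the median difference was -0.01. Outside the family they were probes of Etv1, Mbp and Sh3gl2, named after their values were seen. Nothing is read from this count for the family, whose values chose this contrast. The count was 0 to 6 when single arrays were left out, 0 with array brightness as a covariate or median scaling, and 2356 with no scaling between arrays.

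Tsc22d3 probe ILMN_2701664 read 6.72, 6.74, 6.42 and 6.62 in control brains and 7.71, 7.67, 7.72 and 7.18 in mutant brains. The groups did not overlap, and mutant 4 lay below the other 3 mutants. The mutant minus control difference was 0.95 (SE 0.13), or 1.93-fold, which ranked 4 in the upward direction among the 14027 brain probes. The deposited intensities before any scaling showed the same separation, at 94.3, 105, 71.9 and 86.3 in controls and 188, 164, 176 and 119 in mutants. The background correction compresses dim values, so the fold of a dim probe is understated.

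Tsc22d3 probe ILMN_3150811 read 11.42, 11.14, 11.06 and 11.35 in control brains and 11.51, 11.48, 11.55 and 11.47 in mutant brains. The groups were apart after normalization, by a margin smaller than the spread among controls. The difference was 0.26 (SE 0.09), or 1.20-fold. In the deposited intensities the groups overlapped, at 2193 to 2862 in controls and 2493 to 2786 in mutants. The probes of Tsc22d3 thus gave differences of unequal size from the same 8 RNA samples.

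Tsc22d1 probe ILMN_2723108 read 8.67, 8.93, 8.62 and 8.58 in control brains and 9.33, 9.23, 9.24 and 9.22 in mutant brains. Every mutant lay above every control, with a difference of 0.56 (SE 0.09), or 1.47-fold. Before scaling the intensities overlapped, at 393 to 539 in controls and 505 to 605 in mutants. Probe ILMN_2677878 of the same gene read 6.45, 6.43, 6.31 and 6.01 in controls and 6.89, 6.55, 6.69 and 6.38 in mutants. Its difference was 0.33 (SE 0.13), with mutant 4 inside the control range and the other mutants above it.

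Tsc22d4 showed the smallest difference of the family in brain. It read 8.89, 8.98, 8.87 and 9.02 in controls and 9.13, 9.08, 9.25 and 8.99 in mutants. Mutant 4 fell within the control range, and the difference was 0.17 (SE 0.08), or 1.13-fold. Thus 3 of the 5 probes had groups apart in the upward direction, beside 3.51% of all brain probes.

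The size of these differences depends on the scaling of the dimmer mutant arrays, and the share of the dimming in them was not tested. With no scaling between arrays the median of all probes was -0.19, and Tsc22d3 probe ILMN_2701664 differed by 0.75 and ILMN_3150811 by 0.04. Tsc22d1 probe ILMN_2723108 then differed by 0.33, ILMN_2677878 by 0.16 and Tsc22d4 by -0.06. The upper quartiles ran from 145 to 162 in mutants and from 169 to 189 in controls, without overlap. The upper quartile as a covariate is therefore largely tied to genotype, and the fit cannot separate them. With this covariate the differences were 1.18 for Tsc22d3 probe ILMN_2701664, 0.87 for Tsc22d1 probe ILMN_2723108 and 0.65 for ILMN_2677878. Tsc22d3 probe ILMN_3150811 was then at 0.25 and Tsc22d4 at 0.23.

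Markers of other cells were set beside these brain values. The 11 choroid plexus markers measured were all above 0 as mutant minus control, with a median of 0.20, and their median per array was 6.13 to 6.18 in controls and 6.15 to 6.62 in mutants. Their summed level was 10575 to 13195 in controls and 12582 to 13102 in mutants. The 9 endothelial markers measured of 11 on the array had a median of 7.39 to 7.49 in controls and 7.01 to 7.35 in mutants, with sums of 3597 to 3915 and 3496 to 3728. The endothelial medians did not overlap and were lower in mutants. The 5 erythroid markers measured of 7 summed to 7810 to 9820 in controls and 9855 to 12919 in mutants, with every mutant above every control. Of these 5 markers, 3 lay above 0 and 2 below. Their medians per array overlapped, at 5.42 to 5.55 in controls and 5.52 to 5.72 in mutants. Of all brain probes, 3.51% had groups apart upward and 3.15% downward. Astrocyte markers had a median of -0.03 over 8 of 8 measured, of which 6 lay below 0, with Gfap at 0.37 and its groups apart upward. Oligodendrocyte markers had a median of 0.02 over 7 of 8, with 5 of the 7 above 0 and 2 below. Mog was at 0.26 and Mobp at 0.24, the groups of Mobp being apart upward. Neuron markers had a median of -0.03 over 6 of 8, with 2 of the 6 above 0 and 4 below. Camk2a was at -0.26 and Slc17a7 at -0.36, both with groups apart downward. Microglia markers had a median of -0.07 over 8 of 9, of which 7 lay below 0, with Tyrobp at -0.37 and its groups apart downward. At the 1 probe used for each gene, the one with the highest mean, none of these markers passed an adjusted p under 0.05. Another probe of the oligodendrocyte marker Mbp did pass, at 0.55, and is among the 4 brain calls. The singled-out markers were named after their values were seen. The part of these cells in the family's brain values was not tested.

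**Figure D2:**
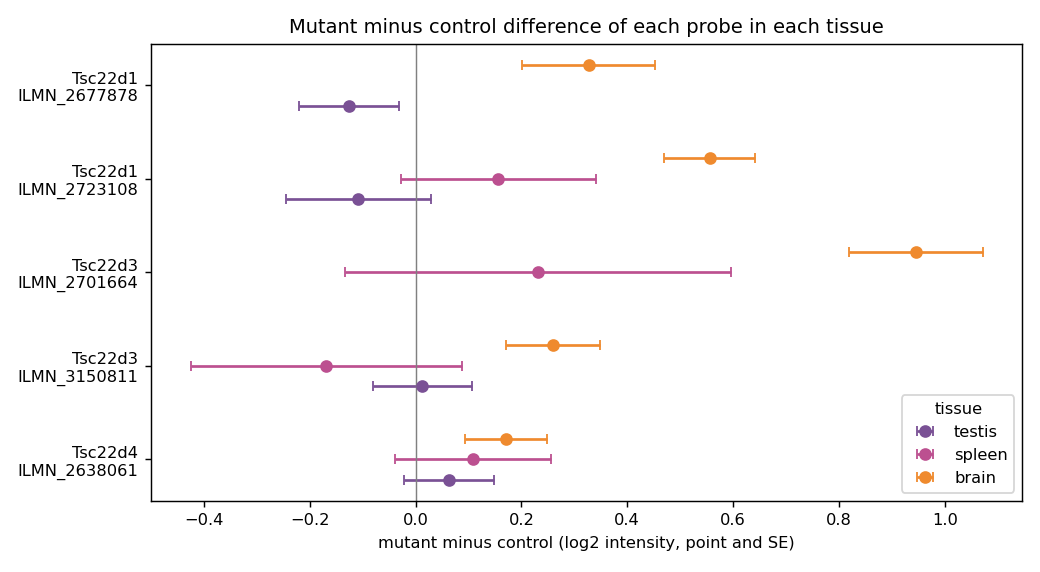
Mutant minus control difference (horizontal axis, log2 intensity) of each family probe (vertical axis) in testis, spleen and brain, as a point with its SE, from 4 arrays a group. The brain points lie between 0.17 and 0.95, and the testis and spleen points lie on both sides of 0; a tissue where a probe was not measured has no point.

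In testis, no family probe passed the test between mutants and controls. Of 13152 probes 0 (0%) passed an adjusted p under 0.05 by limma, and 629 had an unadjusted p under 0.05. Of the 5 family probes 4 were measured, since Tsc22d3 probe ILMN_2701664 was detected on 1 of 8 testis arrays. Tsc22d1 probe ILMN_2677878 read 6.95, 6.69, 6.94 and 6.85 in controls and 6.70, 6.89, 6.64 and 6.70 in mutants. The groups overlapped, and the difference was -0.13 (SE 0.09, 95% interval -0.33 to 0.08, adjusted p 1.00).

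Tsc22d1 probe ILMN_2723108 read 8.36, 8.34, 8.63 and 8.84 in control testis and 8.23, 8.68, 8.55 and 8.27 in mutant testis. The controls marked +/+ were lower than those marked +/-, at a mean of 8.35 against 8.74. The difference between mutants and all 4 controls was -0.11 (SE 0.14, interval -0.41 to 0.19, adjusted p 1.00), and it was 0.09 against the +/+ controls alone.

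Tsc22d3 probe ILMN_3150811 read 7.17, 7.29, 7.15 and 7.42 in control testis and 7.36, 7.23, 7.14 and 7.35 in mutant testis, a difference of 0.01 (SE 0.09, interval -0.19 to 0.22, adjusted p 1.00). Tsc22d4 read 6.36, 6.24, 6.25 and 6.40 in controls and 6.37, 6.37, 6.49 and 6.28 in mutants, a difference of 0.06 (SE 0.09, interval -0.12 to 0.25, adjusted p 1.00). Both pairs of groups overlapped. The intervals of the 4 probes lay between -0.41 and 0.25.

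In spleen, no family probe passed the test either, and the spread between animals was wider. Of 12449 probes 0 (0%) passed an adjusted p under 0.05 by limma, and 216 had an unadjusted p under 0.05. Tsc22d1 probe ILMN_2677878 was detected on 0 of 8 spleen arrays, which left 4 family probes measured. Tsc22d3 probe ILMN_2701664 read 6.20, 5.93, 6.37 and 5.54 in controls and 6.02, 7.56, 5.76 and 5.63 in mutants. Mutant 2, one of the arrays with pancreatic transcripts, lay above every other spleen array. The difference was 0.23 (SE 0.36, interval -0.57 to 1.03, adjusted p 1.00) and -0.31 without mutants 1 and 2.

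Tsc22d3 probe ILMN_3150811 read 10.11, 10.36, 9.67 and 9.87 in control spleen and 9.07, 10.33, 9.73 and 10.21 in mutant spleen. Mutant 1, the other array with pancreatic transcripts, was the lowest of the 8. The difference was -0.17 (SE 0.26, interval -0.73 to 0.39, adjusted p 1.00), and it was 0.08 without mutant 1.

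Tsc22d1 probe ILMN_2723108 read 8.14, 7.68, 7.85 and 8.00 in control spleen and 8.62, 7.80, 7.94 and 7.94 in mutant spleen. Mutant 1 was here the highest of the 8, opposite to its place for Tsc22d3. The difference was 0.16 (SE 0.18, interval -0.25 to 0.56, adjusted p 1.00), and it was -0.03 without mutant 1. Tsc22d4 read 6.74, 6.93, 7.15 and 6.82 in controls and 6.72, 7.19, 6.97 and 7.19 in mutants, with overlapping groups and a difference of 0.11 (SE 0.15, interval -0.21 to 0.43, adjusted p 1.00). The intervals of the 4 probes in spleen lay between -0.73 and 1.03, wider than in testis.

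Whether the effect of genotype differed between spleen and testis was tested for the 3 probes measured in both. The spleen effect minus the testis effect was 0.26 (SE 0.24, interval -0.24 to 0.77) for Tsc22d1 probe ILMN_2723108, -0.18 (SE 0.29, interval -0.79 to 0.42) for Tsc22d3 probe ILMN_3150811 and 0.05 (SE 0.17, interval -0.30 to 0.39) for Tsc22d4. All 3 had an adjusted p of 1.00 by limma. Of 10313 probes 1 (0.0097%) passed, a probe of Bclaf3, named after its value was seen, and 0 passed when any 1 of 11 of the 16 arrays was left out. The difference between brain and the other tissues was not tested, since the brain values chose the family.

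**Figure D3:**
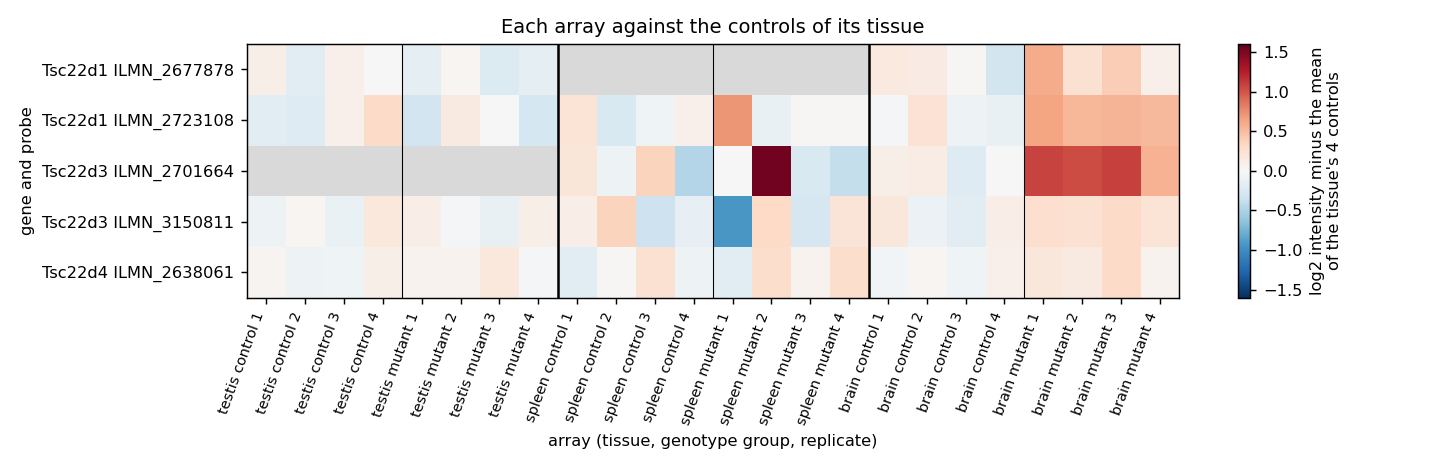
Log2 intensity of each family probe (rows) on each of the 24 arrays (columns) minus the mean of the 4 controls of the same tissue, with red for higher, blue for lower and grey where the probe was not measured in that tissue. The 4 brain mutants are red for Tsc22d3 probe ILMN_2701664 and Tsc22d1 probe ILMN_2723108, and in spleen single mutant arrays stand apart.

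Variation between animals within a tissue was described next. Deviations from the group means were compared over the 8 arrays of each tissue, which share a normalization, for 22 pairs of probes, and r ranged from -0.81 to 0.69. In spleen, Tsc22d1 probe ILMN_2723108 ran against Tsc22d3 probe ILMN_3150811, with Pearson r = -0.79 and Spearman rho = -0.74 over 8 arrays, and r = -0.75 without the 2 arrays farthest from the Tsc22d1 median. It also ran against Tsc22d4, with r = -0.81 and rho = -0.66, but r was -0.36 without those 2 arrays, so that relation rests on them. In brain, the probes of Tsc22d1 had r = 0.62 and rho = 0.71 (0.46 without 2 arrays), and the probes of Tsc22d3 had r = 0.40 and rho = 0.26 (-0.40 without 2 arrays). Tsc22d1 probe ILMN_2723108 and Tsc22d3 probe ILMN_3150811 had r = -0.05 in testis and -0.28 in brain. Without the 2 arrays farthest from the Tsc22d1 median, r was -0.77 in testis and 0.08 in brain. Tsc22d3 probe ILMN_2701664 ran with Tsc22d1 in brain, with r = 0.61 and rho = 0.62 at ILMN_2677878 (0.37 without 2 arrays) and r = 0.43 and rho = 0.81 at ILMN_2723108 (0.29 without 2 arrays). It had r = 0.69 and rho = 0.74 with Tsc22d4 in brain, which rests on 2 arrays, since r was -0.02 without them.

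The genes whose arrays were most like 1 probe of each member, the one with the highest mean signal, were found among 12044 probes of 9096 genes, each detected on at least 12 arrays. By level over 24 arrays, which mainly follows tissue, Tsc22d3 probe ILMN_3150811 was most like Ppp2r5d, Fhl1 and Hexdc, each with r = 0.99. Tsc22d4 was most like Ogfod1, B4gat1 and Axin2, each with r = 0.99. Tsc22d1 probe ILMN_2723108, whose control tissues overlapped as normalized together, had its highest r with Rbbp7 (0.75), Tmem9b (0.65) and Ppp1cb (0.64). These levels include the brain values that chose the family, at a mean of 8.84 in mutants and 8.26 in controls. That contrast therefore enters this r, and another probe of Rbbp7 differed by 0.58 in brain.

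By deviations from the 6 group means, which leave tissue and genotype out, Tsc22d3 probe ILMN_3150811 was most like Ddit4, which encodes an inhibitor of mTORC1 signalling. That r was 0.92 (rho 0.85, and 0.80 without the 2 arrays farthest from the median), and it was 0.72 in testis, 0.97 in spleen and 0.73 in brain. Antkmt (0.89) and Lamtor4 (0.88) followed. Tsc22d4 was most like Plekhg3 (r = 0.86, with 0.88 in testis, 0.86 in spleen and 0.91 in brain), Lpin1 (0.86) and Aoc3 (0.86). Tsc22d1 probe ILMN_2723108 was most like Copg1 (0.84), Ndufc2 (0.84) and Supt20 (0.83), of which Copg1 and Supt20 had r of 0.36 and 0.33 in brain. These genes were picked as the highest of many, and the arrays share their processing.

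Genes of the pathways around the family were then examined, in 5 lists with 1 probe a gene. No gene of any list passed an adjusted p under 0.05 by limma in any of the 3 tissues. Of the genes known as induced by glucocorticoids, 21 of 24 were measured in brain, 16 lay above 0 and the median was 0.19, beside -0.01 over all brain probes and 48.0% of all probes above 0. The groups were apart upward for 3 of the 21, beside 3.51% of all brain probes. The median of the list per array was 8.50, 7.96, 7.78 and 8.31 in controls and 8.47, 8.36, 8.46 and 8.22 in mutants, so the groups overlapped. Without brain control 3, the lowest control, the median difference of the list was 0.04.

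The list held values in both directions in brain. Cdkn1a, the cell cycle inhibitor p21, differed by 0.49 (SE 0.09, adjusted p 0.077) and Htra1, a secreted protease, by 0.21 (SE 0.07, adjusted p 0.292). Sgk1, a kinase that controls ion transport, differed by 0.52 (SE 0.22, adjusted p 0.388) and Ddit4 by 0.32 (SE 0.12, adjusted p 0.312). Fkbp5, which encodes a co-chaperone of the glucocorticoid receptor and is a standard readout of its activity, differed by -0.06 (SE 0.19, adjusted p 0.935), and the clock gene Per1 by -0.03 (SE 0.07, adjusted p 0.917). Lcn2, which encodes an iron-carrier-binding protein, differed by -1.14 (SE 0.51, adjusted p 0.409). Sgk1, Ddit4, Fkbp5, Per1 and Lcn2 were named after their values were seen.

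In testis 18 genes of this list were measured, 9 lay above 0 and the median was -0.01, with Plin4 at 0.27 and Sgk1 at 0.21 (both adjusted p 1.00). In spleen 19 were measured, 6 lay above 0 and the median was -0.08, with Cdkn1a at 0.34 and Pdk4 at -0.30 (both adjusted p 1.00). The list of corticosteroid receptors, chaperones and cofactors had 6 of 11 genes measured in each tissue, none of them a receptor (Hsd11b1, Hsp90aa1, Fkbp4, Ptges3, Ncoa1 and Ncoa2). Their medians were -0.03 in testis, 0.05 in spleen and 0.01 in brain. Hsd11b1, which regenerates active glucocorticoid, differed by 0.20 (adjusted p 0.402) in brain, and Ptges3, the co-chaperone p23, by -0.17 (adjusted p 0.425).

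The proteins that Tsc22d3 is known to bind or restrain had medians of -0.09 over 5 genes in testis, -0.05 over 8 in spleen and 0.04 over 7 in brain. In brain, Fos differed by 0.19 (adjusted p 0.505) and Jun by -0.14 (adjusted p 0.552), the subunits of AP-1. In spleen, the kinase gene Map2k1 differed by 0.22 and the nuclear receptor gene Pparg by -0.18, and in testis Pparg by -0.11 and Junb by -0.10 (all adjusted p 1.00).

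TGF-beta signalling, tied to Tsc22d1, had medians of -0.03 over 16 genes in testis, -0.05 over 16 in spleen and -0.10 over 15 in brain. Klf10, a TGF-beta-induced transcription factor, differed by 0.42 (SE 0.09, adjusted p 0.128) in brain with its groups apart. Its probe was dim, at a mean of 4.79 in controls and 5.21 in mutants. Skil, a repressor of SMAD activity, differed by -0.31 (SE 0.07, adjusted p 0.151), also with its groups apart. Groups were apart in either direction for 6.66% of all brain probes. In spleen Klf10 read -0.18 and Tgfbr1 -0.13, and in testis Tgfbr2 read 0.22 and Eng, a co-receptor, -0.20 (all adjusted p 1.00). The WNK and NRBP kinases with their cotransporters, tied to Tsc22d4, had medians of 0.04 over 8 genes in testis, -0.04 over 7 in spleen and -0.12 over 9 in brain. The cotransporter gene Slc12a4 differed by -0.37 (adjusted p 0.415) and Wnk2 by -0.15 (adjusted p 0.441) in brain, Nrbp1 by 0.30 and Slc12a7 by -0.35 in spleen, and Nrbp1 by 0.21 and Nrbp2 by 0.15 in testis (all adjusted p 1.00 in spleen and testis).

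**Figure D4:**
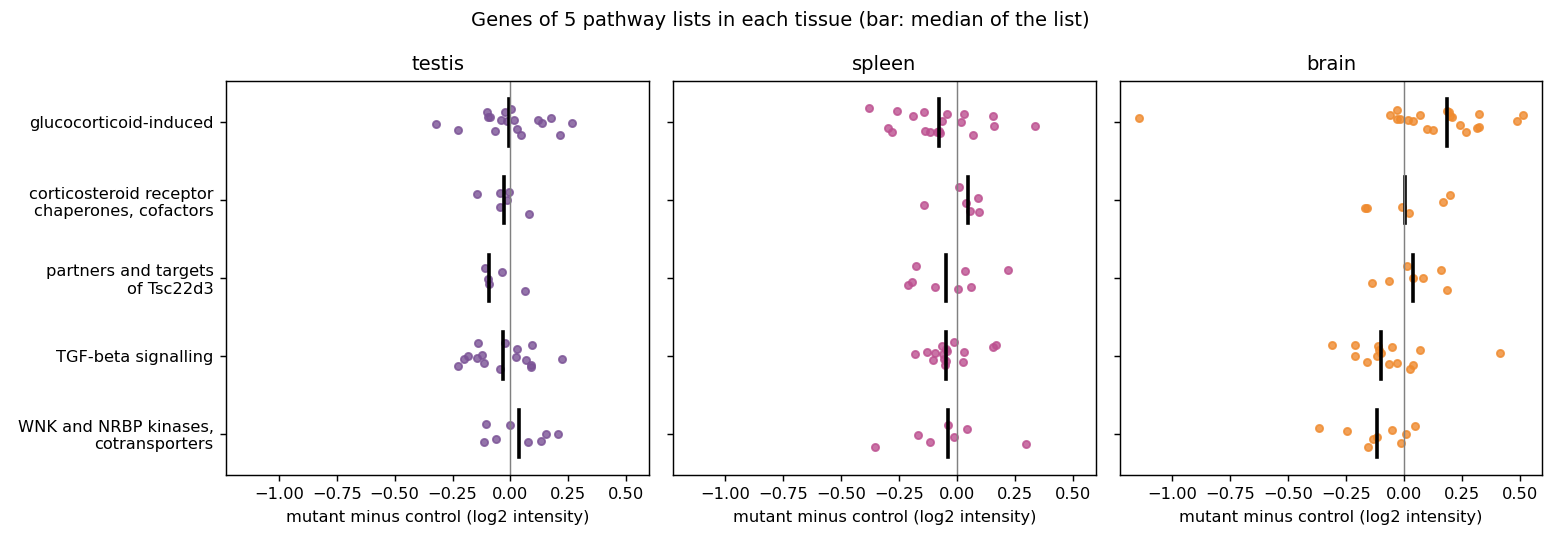
Mutant minus control difference (horizontal axis, log2 intensity) of each measured gene of the 5 pathway lists (rows) in testis, spleen and brain, 1 point a gene, with a black bar at the median of the list. No gene passed the test, and the brain median of the glucocorticoid-induced list is 0.19.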

How the data were processed

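The authors deposited, for each probe and array, a linear intensity with the background subtracted and a detection p-value, per the file headers. GenomeStudio 2011.1 is named in the submitters' processing notes, and RNA was Trizol-extracted and copied into biotinylated cRNA, per the labels' protocols. A normalized table, also deposited and of unstated method, served as an alternative. No slide or scan date was given.

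The deposited intensities were background-corrected, quantile-normalized and put on the log2 scale with neqc of limma 3.58.1 in R 4.3.3 (offset 16), over the 8 arrays of a tissue for mutant against control and over all 24 arrays for tissue levels. Probes with a detection p under 0.05 on at least 4 of 8 arrays of a tissue, or 4 of the 12 controls, were tested with lmFit and eBayes, each pairwise difference without covariates. P-values were adjusted by Benjamini-Hochberg across all probes tested, with a threshold of 0.05, and each SE is moderated. Animals are the replicates, and their number limits the precision. In simulated data with 200 changed probes, 92.4% of 2-fold changes were recovered in testis and 68.2% in spleen. For 1.5-fold changes these shares were 64.2% and 19.4%. The Benjamini-Hochberg cut-off is stricter where fewer probes change. Since 0 probes passed in the measured testis and spleen data, these shares can overstate what was recoverable there. Testis and spleen arrays with the same number come from the same animal by the mouse identifiers. The correlation of their deviations was -0.02 to 0.15, and the animal as a random block changed no member's call.

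Of the 25697 probes 23978 have 1 symbol, 0 several and 1719 none. The named genes are all members, Smc6, the 3 genes most like each member by each measure and the 2 of each list with the smallest p in each tissue. The list members, markers and family were chosen with earlier results of these data known. All columns used were mapped to a sample.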

Additional observations from a re-analysis of the deposited data

Results flagged for a closer look

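Within each group of 4 arrays, the highest and lowest values of each detected family probe were compared with Dixon's test, over 26 sets of 4 values, and 2 stood apart. Chance gives about 1 in 20 such sets. Tsc22d1 probe ILMN_2723108 read 8.62 in spleen mutant 1, against 7.80 to 7.94 in the other 3 spleen mutants. Tsc22d3 probe ILMN_2701664 read 7.18 in brain mutant 4, against 7.67 to 7.72 in the other 3 brain mutants and 6.42 to 6.74 in the brain controls.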

How the results depend on the processing

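Over the family's probes, 567 results under alternatives were computed. Of these 519 kept their direction and side of the threshold, and 28 turned sign. Among those that kept their sign, 12 came to pass the threshold and 0 came to miss it. The 28 were not sorted by threshold, and some of them crossed it. Brain minus spleen for Tsc22d3 probe ILMN_2701664 turned sign and missed with median scaling, and for Tsc22d1 probe ILMN_2723108 it turned sign and passed. The other 8 were brain values that moved by over 1 SD. Brain values carry no test, and count among the 519 where they kept their direction and moved by under 1 SD. No family probe passed the test in testis or spleen under any alternative run. In testis, Tsc22d1 probe ILMN_2723108 was 0.0863 without +/- controls and 0.0149 with no scaling, and Tsc22d3 probe ILMN_3150811 was -0.0180 without the array with pancreatic transcripts. Its range over single arrays left out was -0.0242 to 0.0677. In spleen, Tsc22d3 probe ILMN_2701664 was -0.311 without the arrays with pancreatic transcripts. Leaving out single spleen arrays gave -0.206 to 0.436 for it, -0.333 to 0.0849 for Tsc22d3 probe ILMN_3150811 and -0.0259 to 0.245 for Tsc22d1 probe ILMN_2723108. The spleen effect minus the testis effect was then -0.346 to 0.0720 for Tsc22d3 probe ILMN_3150811 and -0.0115 to 0.143 for Tsc22d4, with 0 to 1 probes called. The 0 came without testis controls 1 to 3, testis mutants 1 or 2, any spleen control, or spleen mutants 3 or 4.

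Brain minus testis for Tsc22d1 probe ILMN_2723108 was 0.157 with each tissue normalized on its own and 0.00665 with median scaling. Its brain minus spleen was 0.784 and 0.416, and that of Tsc22d3 probe ILMN_2701664 was 0.614 and 0.224. Without +/- controls, brain minus spleen was -0.0218 for Tsc22d3 probe ILMN_3150811, and testis minus spleen was -0.163 for Tsc22d1 probe ILMN_2723108, which ranged from -0.0842 to 0.0858 over single arrays left out.

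In testis, 15 probes passed with no scaling, in place of 0. The 4 calls in brain became 32 with all 24 arrays normalized together, 16 with detection on all 8 arrays, 58 with an offset of 50 and 2356 with no scaling between arrays. They became 1 with the deposited normalized values (a Bicdl2 probe, named after its value was seen). There were 0 with no filter on dim probes, with array brightness as a covariate or with scaling to the array median. Brightness did not overlap between the brain groups, so that covariate is largely tied to genotype. Leaving out single brain arrays gave 0 to 6, with 0 without control 3, control 4, mutant 1 or mutant 3, 1 without mutant 4 and 6 without control 2. With the replicate number as a block there were 0. Mutants and controls share only a number, and their same-numbered arrays had correlations of -0.02 to 0.31 in brain and -0.41 to 0.31 over all tissues. Scaling to the median and no scaling were chosen for mutant against control after seeing the data. The cause of these changes was not tested. In brain, over single arrays left out, Tsc22d3 probe ILMN_2701664 ranged from 0.87 to 1.08 and Tsc22d1 probe ILMN_2723108 from 0.51 to 0.63. Tsc22d4 was -0.0586 with no scaling.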
